A study of Mus musculus with 23 samples.

Results

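The genes described here are 9 mouse genes that serve the exit of T cells from the thymus and their adhesion: the egress genes Klf2, S1pr1 and Foxo1, the integrin subunit genes Itgb7, Itga4, Itgb1, Itgal and Itgae, and Cd44, a receptor for hyaluronan. They are listed by name, with no threshold on a measured value, though earlier results of these data were known when the list was drawn up, and all 9 were found among the 24475 genes in the table. RNA sequencing had been carried out on 23 mouse samples, each 1 library. The 6 controls were thymi of normal C57BL/6 mice. The 14 samples called WT T-ALL and the 3 called Notch3 KO T-ALL were spleens of BALB/c Rag2-/-Il2rg-/- hosts in which a newborn thymus, placed under the kidney capsule, had given rise to T-cell acute lymphoblastic leukemia (T-ALL). The donor thymus was wild type (the congenic line B6.Ly5.1, which carries CD45.1) in WT T-ALL and carried a Notch3 knockout, made by inserting the β-galactosidase gene in the first coding exon, in Notch3 KO T-ALL. By the study's methods the hosts were young adults when grafted, and their ages at sampling are not given per sample in the sources used here. The labels give the tissue as spleen and name no sorting step before RNA extraction, and host cells can be part of each leukemia library. Ages of the control mice are not given in the sources used here. Thymus was compared with spleen throughout, so tissue and host strain cannot be told apart from leukemia in any comparison with the controls.

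T cells leave the thymus by following sphingosine-1-phosphate, a lipid that is abundant in blood and scarce in tissue, which they sense with the receptor S1PR1. The transcription factor FOXO1 promotes expression of KLF2, and KLF2 in turn drives S1pr1 transcription, so these genes usually come up late in thymocyte maturation. Integrins are pairs of an α and a β chain: α4 (Itga4) pairs with β1 (Itgb1) to bind VCAM-1 or with β7 (Itgb7) to bind the gut addressin MAdCAM-1, αL (Itgal) pairs with β2 to form LFA-1, and αE (Itgae, CD103) pairs with β7 to bind E-cadherin. CD44 is high on the earliest thymocytes, falls as they mature and is also abundant on myeloid cells.

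The values are log2(scaled RPKM + 1), where RPKM is a read density per transcript length and library size, brought by the authors to a common 75th percentile of 10 in each library. RPKM is per length, so levels may be set beside each other between genes. The table gives no read counts, and the study states 1 approximate depth for all samples, so the depth of each library is not known. Genes that reached a scaled RPKM of 1 in 3 or more of the libraries fitted were tested with limma's moderated test and Benjamini-Hochberg adjustment over all genes tested, and a gene is called where the adjusted p is under 0.05. Summed over 8 defining T-cell genes, scaled RPKM lay between 2943 and 3720 in thymus, between 1545 and 3456 for WT T-ALL and between 2078 and 2624 for Notch3 KO T-ALL, so T-cell RNA was abundant in every library. Markers of other cells moved with the groups: 8 erythroid genes had sums between 0.931 and 92.4 in thymus, between 351 and 23898 for WT T-ALL and between 9903 and 34237 for Notch3 KO T-ALL, and for 9 neutrophil genes these ranges were 58.2 to 538, 661 to 87221 and 206 to 7750. Markers of double-positive thymocytes, the most numerous cells of the thymus, moved the other way: 7 genes had sums of 2876 to 3831 in thymus, 128 to 813 for WT T-ALL and 207 to 1152 for Notch3 KO T-ALL. The 5 B-cell genes summed to 17.4 to 23.03, 0.52 to 5.80 and 0.638 to 1.53. The part of these cells in the results was not tested. In the thymus, 6 of the 8 erythroid genes had a mean under 1, whereas no gene of that list did in either leukemia group. By the levels of 4 genes the libraries fell into 2 sets that the labels do not name. Set A held Thymus 5 and 6, WT T-ALL 3, 4, 5 and 7 and all 3 Notch3 KO T-ALL, and set B held the other 4 thymus and 10 WT T-ALL libraries. No member was called between the sets within WT T-ALL (limma adjusted p 0.319 to 0.839), while 48 genes of the whole table were. Within thymus, numbers 5 and 6 lay below every set B library in S1pr1 (log2 2.85 and 3.55 against 3.70 to 4.35). The same held for Itgb7, Itga4, Itgb1, Itgae and Cd44, and not for Klf2, Foxo1 and Itgal. The set is thus unevenly spread over the controls and the Notch3 KO T-ALL libraries, and its part in the differences was not tested in thymus. Log2 Notch3, the targeted gene, ranged from 2.59 to 3.74 in the 3 knockout leukemias, from 3.17 to 5.78 in the 14 wild-type ones and from 2.62 to 4.29 in thymus. A value over the whole gene does not show whether the disrupted exon is absent.

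The first question was how these genes stood in WT T-ALL against normal thymus. Of the 9 members, all tested, 5 fell and none rose: S1pr1, Itgae, Itgb7, Itgal and Foxo1. Of all 11919 genes tested, 51.6% were called in either direction, 29.3% higher and 22.3% lower, so a call by itself was common in this comparison. This split depends on the scaling: with mitochondrial and hemoglobin genes left out of the scaling 15.6% were called higher and 38.7% lower, and the median difference over all genes moved from 0.08 to -0.27. Under that scaling the members called lower were 6, with Itga4 added. Klf2, Itga4, Itgb1 and Cd44 did not pass the test. These are bulk libraries, in which fewer cells that express a gene cannot be told apart from less RNA per cell.

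**Figure D1:**
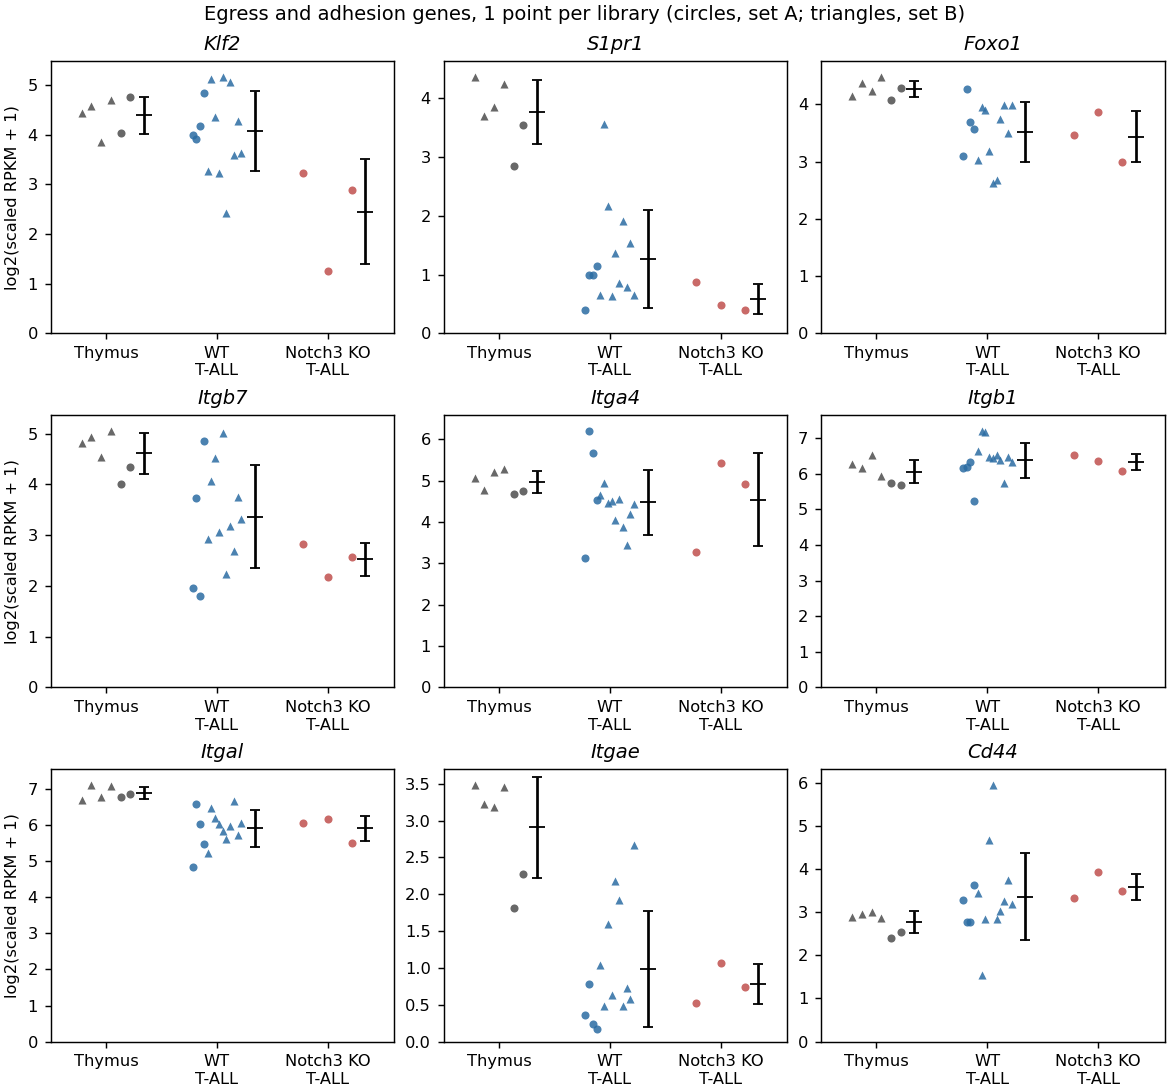
Log2(scaled RPKM + 1) of each of the 9 genes (vertical axis) by group (horizontal axis), 1 point per library, with circles for set A, triangles for set B and bars for the mean ± SD. S1pr1 and Itgae sit low in nearly all leukemia libraries, Itgal lies below every thymus library in all 17, and Cd44, Itgb7 and Klf2 spread widely within WT T-ALL.

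S1pr1 (gene 13609; GRCm38 chromosome 3, 115710433 to 115715072, minus strand), the receptor for the egress signal, fell the most. Its scaled RPKM was 6.19 at the lowest, 12.7 at the median and 19.5 at the highest in the 6 thymus libraries, and 0.317, 0.989 and 10.8 in the 14 WT T-ALL libraries. The single high leukemia value belonged to WT T-ALL 36, which lay inside the thymus range, and the other 13 lay below every thymus library. Log2 means were 3.76 ± 0.54 (SD, n = 6) and 1.26 ± 0.83 (SD, n = 14), a difference of -2.50 (95% confidence interval -3.19 to -1.81; limma adjusted p = 2.54e-06). In Notch3 KO T-ALL scaled RPKM of S1pr1 was 0.831, 0.401 and 0.323 in libraries 1, 2 and 3. None of these reached 1, and 6 of the 14 WT T-ALL libraries did, so the fold change of this gene is understated by the offset of 1.

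Foxo1 (gene 56458; chromosome 3, 52268336 to 52353221, plus strand), the factor upstream of Klf2, fell by a smaller amount. Scaled RPKM ran from 15.9 through a median of 18.2 to 21.2 in thymus and from 5.16 through 11.4 to 18.4 in WT T-ALL. Among the WT T-ALL libraries 13 lay below every thymus library, and WT T-ALL 4 lay inside the thymus range. The log2 difference was -0.75 (95% confidence interval -1.18 to -0.32; limma adjusted p = 0.0046).

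Klf2 (gene 16598; chromosome 8, 72319033 to 72321656, plus strand) did not follow S1pr1 in WT T-ALL. Scaled RPKM was 13.5, 21.7 and 26.2 (lowest, median and highest) in thymus and 4.39, 16.1 and 34.8 in WT T-ALL, so that 5 WT T-ALL libraries lay below the thymus range, 4 above it and 5 inside it. The log2 difference of -0.31 had a 95% confidence interval of -1.02 to 0.40 (limma adjusted p = 0.46). To set the factor beside its target gene, log2 S1pr1 was subtracted from log2 Klf2 in each library, a measure chosen after the values were seen. This difference was 0.64 ± 0.54 (SD, n = 6) in thymus and 2.82 ± 0.69 (SD, n = 14) in WT T-ALL, a widening of 2.18 (exact permutation test over libraries, two-sided, p = 2.58e-05, the smallest that 38760 splits allow). It widened by 2.16 within set A, where 15 splits allow no p below 0.0667 (exact permutation p = 0.0667), and by 2.25 within set B (exact permutation p = 0.000999). The offset makes this measure smaller where S1pr1 is near 0. Its change is that of Klf2 (-0.31) minus that of S1pr1 (-2.50), so its p mostly restates the fall of S1pr1 and is not separate evidence.

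The promoters of the called members could be read for 2 genes, and that of Klf2 is shown with them as the factor of the same axis. Each line gives 200 bases from RefSeq (GRCm38.p6), which open 250 bases before the start site in that table (for Klf2 and Itgb7 it lies some bases inside the gene boundary given for them here), 5′ to 3′ on the gene's strand. They are chr8:72318812-72319011 for Klf2 (plus strand), chr3:52268087-52268286 for Foxo1 (plus) and chr15:102231986-102232185 for Itgb7 (minus). Capitals mark matches to the GC box GGGCGG on either strand.
Klf2: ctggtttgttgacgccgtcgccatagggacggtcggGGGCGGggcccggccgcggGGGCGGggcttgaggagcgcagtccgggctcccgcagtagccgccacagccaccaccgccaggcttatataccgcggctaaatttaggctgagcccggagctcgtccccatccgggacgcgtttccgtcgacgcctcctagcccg
Foxo1: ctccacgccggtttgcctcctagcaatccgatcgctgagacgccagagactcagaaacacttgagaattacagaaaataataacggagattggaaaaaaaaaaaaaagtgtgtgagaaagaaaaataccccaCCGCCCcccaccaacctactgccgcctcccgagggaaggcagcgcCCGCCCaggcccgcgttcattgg
Itgb7: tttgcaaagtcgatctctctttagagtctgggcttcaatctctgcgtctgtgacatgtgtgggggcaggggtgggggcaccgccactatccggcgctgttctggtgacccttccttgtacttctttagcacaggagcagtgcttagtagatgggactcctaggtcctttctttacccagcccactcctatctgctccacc
The Klf2 window is rich in G and C (70.5%) and holds 2 GC boxes, the Foxo1 window (53%) holds 2 and the Itgb7 window (54.5%) none. A GC box occurs in 24.6% of all 32851 promoter windows of this length. Also searched on both strands were a FOXO motif (GTAAACA, in 2.58% of all windows), a KLF motif (CCACACCC, 2.44%), an E-box (CACCTG, 14.4%), an ETS motif (CCGGAAG, 3.98%) and a RUNX motif (TGTGGT, 11.6%), and none of them was found in these 3 windows. The table held 6 of the 9 members, and among the other 3, Itga4 alone had a match to the KLF motif, 59 to 52 bases before its start, which overlaps a RUNX match there. A match or its absence describes only the letters of the window.

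Among the integrins, Itgae (gene 16407; chromosome 11, 73090583 to 73147446, plus strand) fell the most. Scaled RPKM was 2.52, 8.23 and 10.2 in thymus (lowest, median, highest) and 0.126, 0.603 and 5.33 in WT T-ALL. Only 5 WT T-ALL libraries reached 1, 11 lay below the thymus range, and the highest was WT T-ALL 202. The log2 difference was -1.92 (95% confidence interval -2.61 to -1.23; limma adjusted p = 5.96e-05). The 2 thymus libraries of set A, at log2 1.82 and 2.28, lay below the 4 of set B, at 3.19 to 3.48. With the library set as a term the difference was -1.96, and within set B it was -2.11. Within set A the gene did not pass the filter.

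Itgb7 (gene 16421; chromosome 15, 102215995 to 102231944, minus strand), the β chain that pairs with αE and α4, fell as well. Its scaled RPKM was 15.0 at the lowest, 24.7 at the median and 32.1 at the highest in thymus, against 2.51, 8.56 and 31.5 in WT T-ALL. In WT T-ALL 7, 36, 48 and 110 the level was inside the thymus range, and the other 10 libraries lay below it. The log2 difference was -1.24 (95% confidence interval -2.04 to -0.44; limma adjusted p = 0.0103).

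Itgal (gene 16408; chromosome 7, 127296260 to 127335138, plus strand), the α chain of LFA-1, also fell. Scaled RPKM was 104 to 138 in thymus and 27.7 to 100.4 in WT T-ALL, and all 14 leukemia libraries lay below all 6 thymus libraries, a separation that 6.64% of all genes tested showed in that direction. The log2 difference was -0.98 (95% confidence interval -1.40 to -0.55; limma adjusted p = 0.000424), with means of 6.90 ± 0.17 (SD, n = 6) and 5.92 ± 0.51 (SD, n = 14).

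Itga4 and Itgb1 did not pass the test. For Itga4 (gene 16401; chromosome 2, 79255426 to 79333123, plus strand) scaled RPKM was 24.8, 29.4 and 37.9 in thymus and 7.83, 21.4 and 72.4 in WT T-ALL, with 11 of 14 libraries below the thymus range and 2 (WT T-ALL 4 and 5) above it. The log2 difference was -0.49 (95% confidence interval -1.18 to 0.21; limma adjusted p = 0.23). Within set B alone Itga4 was lower by a called difference of -0.77 (limma adjusted p = 0.011), while in set A, which holds the pair of high libraries, the value was 0.16.

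Itgb1 (gene 16412; chromosome 8, 128685654 to 128733200, plus strand), the β chain of the α4β1 receptor, was high everywhere, at 50.0 to 91.5 scaled RPKM in thymus and 36.5 to 146 in WT T-ALL. The log2 difference was 0.32 (95% confidence interval -0.11 to 0.74; limma adjusted p = 0.199), and -0.09 with mitochondrial and hemoglobin genes left out of the scaling. Among the 5 integrin chains described here, the order of the most abundant differed between the groups: Itgal was above Itgb1 in all 6 thymus libraries, whereas Itgb1 was above Itgal in 11 of 14 WT T-ALL and in 3 of 3 Notch3 KO T-ALL libraries. WT T-ALL 4, 7 and 126 kept the order of the thymus. Log2 Itgb1 minus log2 Itgb7, a second measure chosen after the values were seen, was 1.44 ± 0.39 (SD, n = 6) in thymus and 3.01 ± 1.12 (SD, n = 14) in WT T-ALL, a difference of 1.56 (exact permutation test, two-sided, p = 0.00459). It was 1.34 within set A (exact permutation p = 0.4) and 1.66 within set B (exact permutation p = 0.003). This measure follows from the differences of Itgb1 (0.32) and Itgb7 (-1.24), so its p is not separate evidence.

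Cd44 (gene 12505; chromosome 2, 102811141 to 102901665, minus strand) was the least abundant member in thymus, at 4.25, 6.35 and 7.08 scaled RPKM (lowest, median, highest). In WT T-ALL it was 1.94, 8.37 and 60.8. Of the 14 libraries 9 lay above the thymus range, 4 inside it and 1, WT T-ALL 36, below it. The log2 difference of 0.58 did not pass the test (95% confidence interval -0.20 to 1.36; limma adjusted p = 0.202). Cd44 exceeded S1pr1 in 13 of 14 WT T-ALL and 3 of 3 Notch3 KO T-ALL libraries and in 0 of 6 thymus libraries. Within thymus the mean levels ran Itgal, Itgb1, Itga4, Itgb7, Klf2, Foxo1, S1pr1, Itgae and Cd44, and several neighbours in that order did not differ beyond their spread: Itgb7 and Klf2 were 0.22 ± 0.39 apart on the log2 scale (SD, n = 6), Klf2 and Foxo1 0.12 ± 0.30 and Itgae and Cd44 0.13 ± 0.47. In WT T-ALL the order was Itgb1, Itgal, Itga4, Klf2, Cd44, Itgb7, Foxo1, S1pr1 and Itgae, and the gaps below the first 2 genes were larger than their spread only between Itgal and Itga4 (1.44 ± 0.75, SD, n = 14) and between Foxo1 and S1pr1 (2.26 ± 0.82).

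Leaving out any single library of the 20 kept all 5 calls. Within set A, 2 thymus against 4 WT T-ALL libraries, S1pr1 alone of the 8 members tested was called (-2.31, limma adjusted p = 0.00959), where 14.7% of all genes were called, and within set B 6 of 9 were called, where 42.7% of all genes were. A score of erythroid RNA (the mean log2 value of 8 genes) as a covariate left 1 call, Itgae, where 6.95% of all genes were called. That score was 0.144 to 1.62 in thymus and 3.60 to 8.69 in the leukemias, so it cannot be told apart from the tissue. With a myeloid score as the covariate 3 calls were left (S1pr1, Itgae and Itgb7), where 28.3% of all genes were called, while the differences of Foxo1 and Itgal were -0.19 and -0.72 (limma adjusted p = 0.599 and 0.0588).

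**Figure D2:**
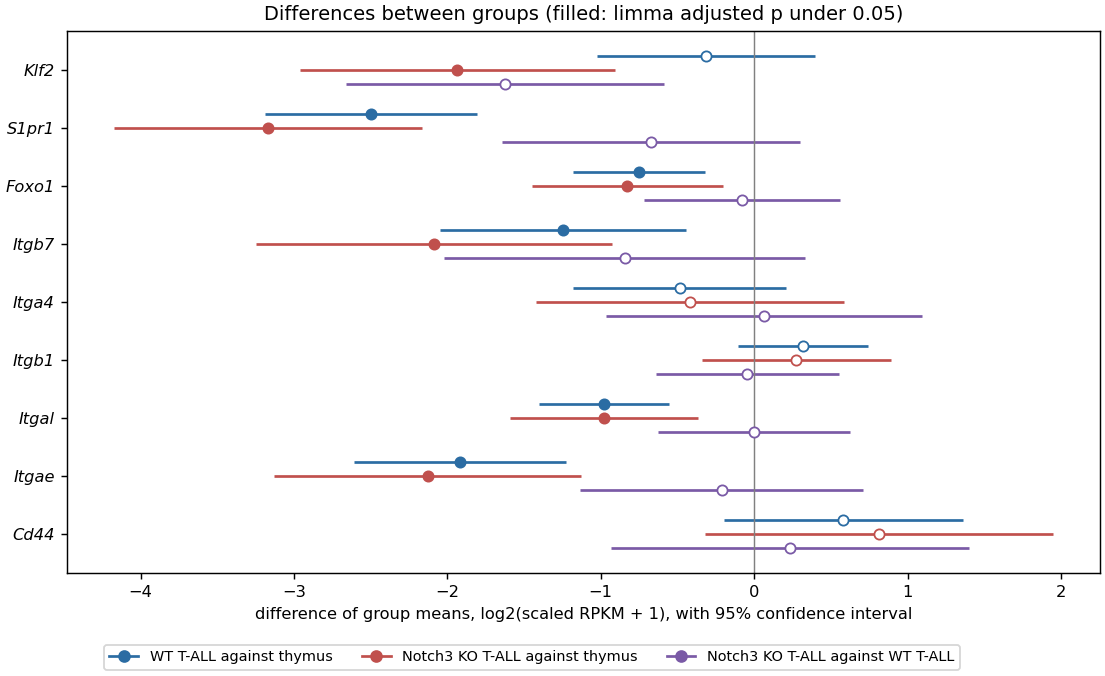
Difference of group means in log2(scaled RPKM + 1) (horizontal axis) with its 95% confidence interval for each gene (vertical axis) and comparison, filled where the limma adjusted p was under 0.05. Against thymus, 5 genes in WT T-ALL and 6 in Notch3 KO T-ALL are filled and all lie left of 0, and none of the 9 is filled between the leukemia groups.

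The second comparison set Notch3 KO T-ALL beside the same thymus libraries. Here 6 of 9 members fell and none rose, against 37.5% of all 11919 genes called in either direction, 21.2% higher and 16.3% lower (17.5% and 20.1% after quantile normalization, and 10.7% and 30.3% with mitochondrial and hemoglobin genes left out of the scaling). The 5 genes that fell in WT T-ALL were among them, with log2 differences of -3.17 for S1pr1 (limma adjusted p = 3.26e-05), -2.13 for Itgae (0.00151), -2.09 for Itgb7 (0.00564), -0.98 for Itgal (0.0125) and -0.83 for Foxo1 (0.0336). Both comparisons use the same controls, so these are not separate observations of the thymus. In each of the 6 genes all 3 Notch3 KO T-ALL libraries lay below all 6 thymus libraries, a separation in that direction that 18.4% of all genes tested had (42.3% in either direction).

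Klf2 was the sixth. Log2 Klf2 was 3.23, 1.25 and 2.88 in Notch3 KO T-ALL 1, 2 and 3, against 3.85 to 4.77 in thymus. The difference was -1.94 (95% confidence interval -2.96 to -0.91; limma adjusted p = 0.00408), and without library 2, the lowest, it was -1.33 and was no longer called (adjusted p = 0.052). The separation of Klf2 from S1pr1 seen in WT T-ALL was smaller here, 1.87 ± 0.96 (SD, n = 3), and its difference of 1.23 from thymus did not pass (exact permutation test, p = 0.0595, with 0.0119 the smallest that 84 splits allow). With an offset of 0.1 in place of 1 the difference was 2.22 (exact permutation p = 0.0119).

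Itgb7 was 2.82, 2.17 and 2.57 on the log2 scale in the 3 libraries, the lowest group mean of that gene. Itgb1 minus Itgb7 accordingly stood at 3.81 ± 0.35 (SD, n = 3), which is 2.36 above thymus (exact permutation test, p = 0.0119, the smallest possible). Itga4 split the group, with scaled RPKM of 8.74 in library 1, below the thymus range, 41.8 in library 2, above it, and 29.5 in library 3, inside it. Cd44 was above every thymus library in all 3, at log2 3.34, 3.93 and 3.50 against 2.39 to 3.01. Its difference of 0.81 did not pass the fit across all genes, which shares its spread with WT T-ALL (95% confidence interval -0.32 to 1.95; limma adjusted p = 0.25), and it passed where WT T-ALL was left out of the fit (adjusted p = 0.00513). Without library 1 the call of Foxo1 was lost (adjusted p = 0.0802), and without library 3 those of Foxo1 and Itgal were (0.209 and 0.099). Leaving out Thymus 2 or Thymus 4 each left 5 members called, where 34.7% and 34.3% of all genes were. Within set A, 2 thymus against 3 Notch3 KO T-ALL libraries, Itgb7 (-1.65), Itgae (-1.27) and Itgal (-0.91) were called lower and Cd44 (1.13) higher, S1pr1 failed the filter, and Klf2 (-1.94) had a limma adjusted p of 0.0513. Of all genes 13.7% were called lower and 18.8% higher there. With the myeloid score as a covariate 4 calls were left, where 22.04% of all genes were called, while Foxo1 (-0.21) and Itgal (-0.70) had limma adjusted p of 0.662 and 0.171. Only Itgae kept its call with the erythroid score as a covariate (limma adjusted p = 0.0302), where 1.40% of all genes were called.

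The third comparison asked whether loss of Notch3 in the donor thymus went with other levels of these genes in the leukemia. None of the 9 members was called between Notch3 KO T-ALL and WT T-ALL, where 0.617% of 11677 genes were called (limma; 0.591% higher and 0.0257% lower). In no member did all 3 libraries lie outside the WT T-ALL range, which 0.437% of genes did in either direction and 0.111% below it. Of the 9 members 1, Klf2, had an unadjusted limma p under 0.05, as did 994 of the 11677 genes, so this count is near the share over all genes. Log2 Klf2 was 2.45 ± 1.06 (SD, n = 3) against 4.08 ± 0.81 (SD, n = 14), a difference of -1.62 (95% confidence interval -2.66 to -0.58; limma adjusted p = 0.165; exact permutation test of this gene alone, p = 0.0103). Of the 3 values, 2 lay inside the WT T-ALL range of 2.43 to 5.16, and without library 2 the difference was -1.02. With the erythroid score as a covariate it was -0.88 (95% confidence interval -2.06 to 0.31). Library 2 had the highest hemoglobin share of all, 15.5%, and the erythroid score was 6.61 to 8.69 in Notch3 KO T-ALL against 3.60 to 7.58 in WT T-ALL. All Notch3 KO T-ALL libraries are in set A, and against the 4 WT T-ALL libraries of that set the difference was -1.79 (limma adjusted p = 0.166). Klf2 minus S1pr1 was different by -0.95 from WT T-ALL (exact permutation test, p = 0.0618), by -1.49 within set A (exact permutation p = 0.0286, the smallest that 35 splits allow), by -0.68 with an offset of 0.1 (exact permutation p = 0.284) and by -0.40 without library 2 (exact permutation p = 0.458).

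For the other members the intervals show what 3 libraries could tell. They ran from -0.72 to 0.56 for Foxo1, -0.62 to 0.62 for Itgal and -0.64 to 0.55 for Itgb1. The intervals were wider for S1pr1 (-1.64 to 0.30), Itgb7 (-2.02 to 0.33), Itga4 (-0.97 to 1.10), Itgae (-1.13 to 0.71) and Cd44 (-0.94 to 1.40), and each of these reaches past 1 on the log2 scale in 1 direction. For S1pr1 and Itgae, which lie near the offset, 1 log2 unit stands for more than a 2-fold difference in scaled RPKM.

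**Figure D3:**
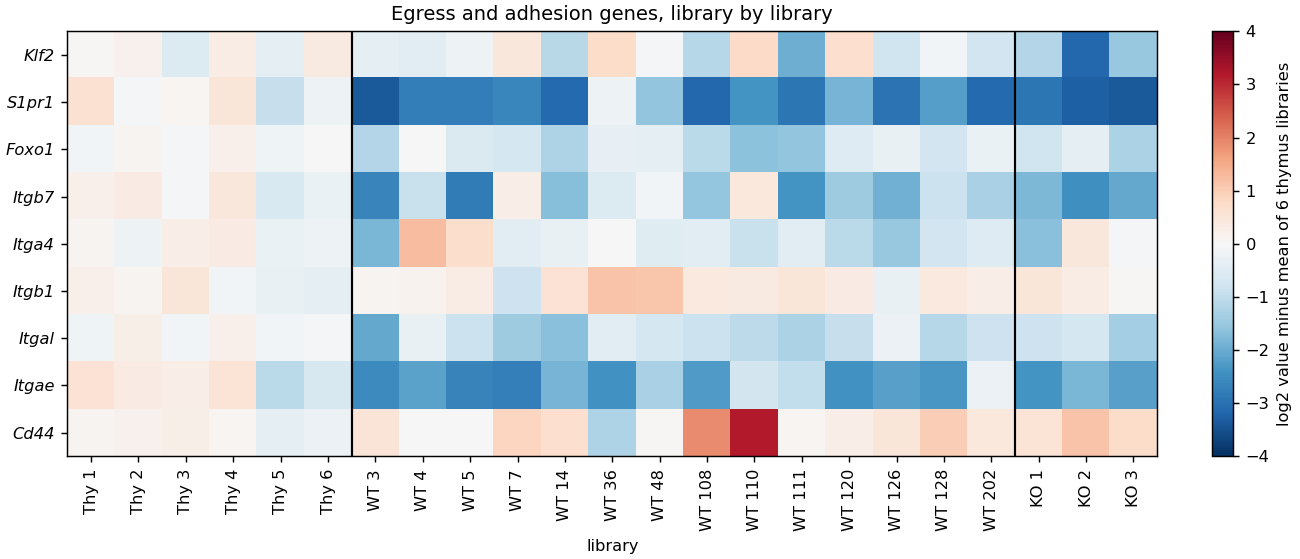
Each of the 9 genes (rows) in each of the 23 libraries (columns), colored by its log2 value minus the mean of the 6 thymus libraries, with lines between thymus (Thy), WT T-ALL (WT) and Notch3 KO T-ALL (KO). S1pr1 is low in all leukemia columns except WT 36, and single libraries stand out in Cd44 (WT 108 and 110), Itga4 (WT 4) and Klf2 (WT 111 and KO 2).

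Tumor by tumor, the members differed in how much they varied within WT T-ALL. The SD of Itgb7 across the 14 libraries (1.02 on the log2 scale) was larger than that of 94.9% of genes of like level, and the corresponding shares were 94.7% for Cd44, 93.4% for Itga4, 92.9% for Klf2, 80.9% for Itgal, 80.3% for Itgae, 79.9% for S1pr1, 79.4% for Itgb1 and 76.6% for Foxo1. In scaled RPKM the highest library exceeded the lowest by 42.4-fold for Itgae (28.1-fold without WT T-ALL 202), by 34.03-fold for S1pr1 (10.98-fold without WT T-ALL 36 and 19.8-fold without WT T-ALL 3) and by 31.4-fold for Cd44 (10.5-fold without WT T-ALL 36 and 12.7-fold without WT T-ALL 110). The ratio was 12.5-fold for Itgb7, 9.25-fold for Itga4 and 7.93-fold for Klf2 (4.14-fold without WT T-ALL 111). Itgb1, Itgal and Foxo1 varied by 3.99-fold, 3.62-fold and 3.56-fold.

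WT T-ALL 36 was the only leukemia library with S1pr1 in the thymus range. Its log2 S1pr1 was 3.56, next to 2.16 in WT T-ALL 48 and 1.90 in WT T-ALL 120, and its log2 Klf2 was 5.13. The same library had the lowest Cd44 of all 23 (1.56) and the highest Itgb1 (7.20). Its macrophage score (1.61) was the lowest of the 14 WT T-ALL libraries.

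WT T-ALL 110 combined the highest Klf2 (5.16), Itgb7 (5.02) and Cd44 (5.95) of the WT T-ALL libraries with the lowest Foxo1 (2.62). It also had the highest neutrophil score, 11.4 against 4.67 to 9.52 in the other 13, and the lowest T-cell score, 7.22. WT T-ALL 111 was low in several members, with the lowest Klf2 (2.43), a Foxo1 of 2.68 and an Itgb7 of 2.23. WT T-ALL 4 had the highest Itga4 (6.20) and Foxo1 (4.27) of the group, and WT T-ALL 3 the lowest S1pr1 (0.40), Itga4 (3.14) and Itgal (4.85). WT T-ALL 7 had the lowest Itgb1 (5.23) and Itgae (0.17) beside an Itgb7 of 4.87. In that library mitochondrial genes made up 45.9% of summed scaled RPKM, against 10.3 to 20.9% in the other 13, and their part in its values was not tested.

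**Figure D4:**
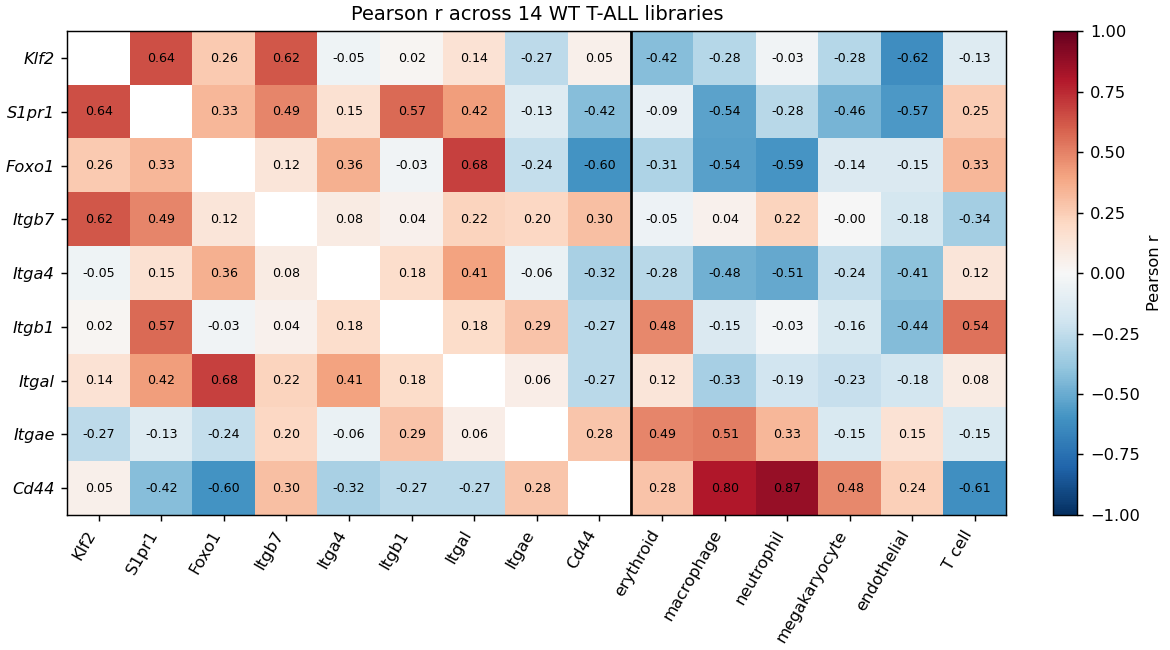
Pearson r across the 14 WT T-ALL libraries for each pair of the 9 genes (left of the line) and for each gene against 6 cell type scores (right of the line). The strongest positive values are those of Cd44 with the neutrophil (0.87) and macrophage (0.80) scores, followed by Foxo1 with Itgal (0.68) and Klf2 with S1pr1 (0.64).

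Whether members moved together from tumor to tumor was tested over the 36 pairs in the 14 WT T-ALL libraries, by Pearson's r with a permutation test of 100000 resamples and adjustment over the 36. No pair passed. The closest were Foxo1 with Itgal (r = 0.68, permutation p = 0.00701, adjusted p = 0.179; Spearman's rho = 0.80, permutation p = 0.00115, adjusted p = 0.0272) and Klf2 with S1pr1 (r = 0.64, permutation p = 0.0109, adjusted p = 0.179; rho = 0.78, permutation p = 0.00151, adjusted p = 0.0272), both of which passed on ranks. Without WT T-ALL 110 and 111, the libraries farthest from the median of the first gene, r was 0.84 and 0.76, and within the 10 libraries of set B it was 0.71 and 0.73. Set A held too few WT T-ALL libraries for a correlation. Klf2 with Itgb7 had an r of 0.62 (permutation p = 0.018, adjusted p = 0.179; rho = 0.66, permutation p = 0.0115, adjusted p = 0.137), which was 0.45 without WT T-ALL 110 and 111 and 0.78 within set B.

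**Figure D5:**
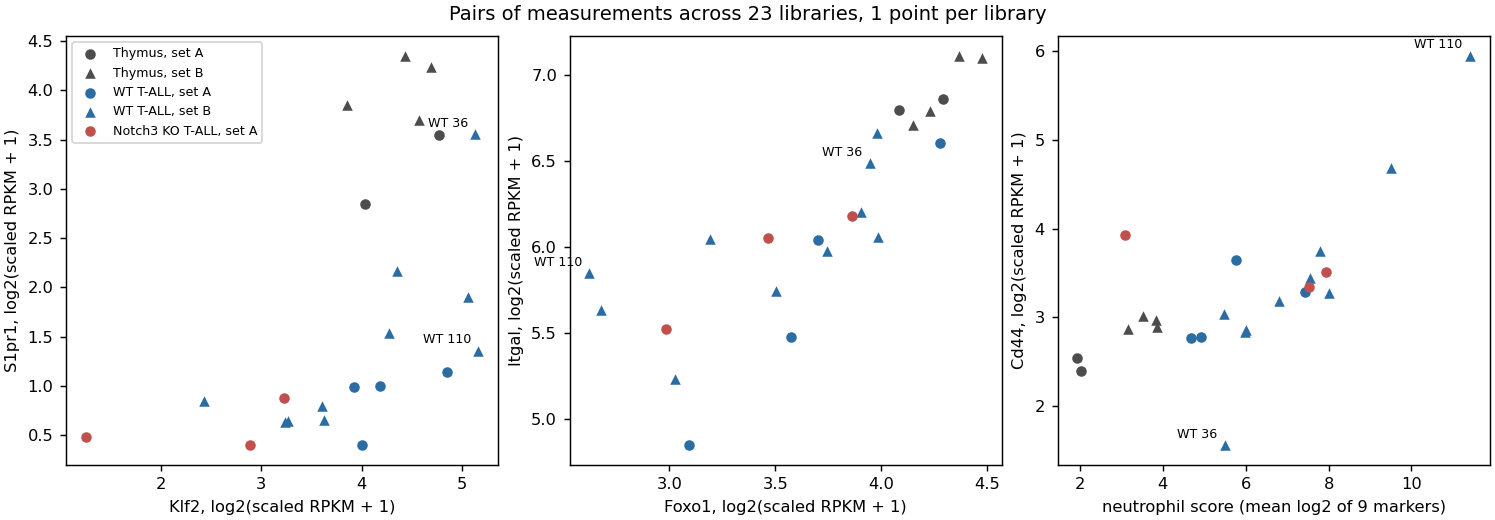
S1pr1 against Klf2, Itgal against Foxo1 and Cd44 against the neutrophil score (mean log2 value of 9 markers), 1 point per library, all in log2(scaled RPKM + 1), with circles for set A and triangles for set B. At like Klf2 the thymus libraries lie above the leukemia libraries in S1pr1 other than WT 36, and Cd44 is highest where the neutrophil score is highest (WT 110).

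Of 54 relations between members and cell type scores across WT T-ALL, 2 passed, both of Cd44. Cd44 was higher where the neutrophil score was higher (r = 0.87, permutation p = 0.0001, adjusted p = 0.0054; rho = 0.82, permutation p = 0.00051, adjusted p = 0.0138) and where the macrophage score was (r = 0.80, permutation p = 0.00028, adjusted p = 0.00756; rho = 0.85, permutation p = 0.00023, adjusted p = 0.0124). Without the 2 libraries farthest from the median of the score, WT T-ALL 108 and 110 for neutrophils and 36 and 108 for macrophages, r was 0.57 and 0.67. Within set B r was 0.94 and 0.83. Among thymus libraries Cd44 was also lowest in numbers 5 and 6 (2.39 and 2.54), which had the lowest neutrophil (2.02 and 1.94) and macrophage scores (0.93 and 0.98). In Notch3 KO T-ALL the highest Cd44, 3.93 in library 2, stood beside the lowest neutrophil score of that group, 3.09, and a macrophage score of 4.36. With the myeloid score as a covariate the Cd44 difference between WT T-ALL and thymus was -0.81 (limma adjusted p = 0.0849), opposite in sign to the difference without it.

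As a description, the 2 genes whose levels across WT T-ALL were most like each member's were found among 7977 genes with a mean scaled RPKM of at least 5. For Cd44 they were Spi1, which encodes the myeloid transcription factor PU.1 (r = 0.95), and Pram1 (r = 0.94). Klf2 was most like Ltb, which encodes lymphotoxin β (0.83), and B4galnt1 (0.74), S1pr1 most like Fam65b (0.87) and Krit1 (0.81), and Foxo1 most like Aff3 (0.88) and Sash3 (0.87). For the integrins they were Myo1g (0.94) and Aspscr1 (0.85) with Itgb7, Chd1 (0.87) and Ldlrad4 (0.79) with Itga4, Fundc1 (0.92) and Lyrm2 (0.92) with Itgb1, Uggt1 (0.91) and Itpkb (0.90) with Itgal, and H2-Ea-ps (0.83) and Fam46c (0.82) with Itgae. Mean log2 H2-Ea-ps was 0.13 in thymus, 4.00 in WT T-ALL and 4.44 in Notch3 KO T-ALL, and the part of host cells in this likeness was not tested.

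The genes around the members were followed in 4 lists. Of 22 tested genes that work with the egress genes (sphingosine-1-phosphate enzymes and receptors, FOXO and KLF relatives, chemokine receptors and their signaling partners), 14 fell and 2 rose in WT T-ALL against thymus, and the median difference was -0.55 against 0.08 over all genes tested, of which 22.3% were called lower and 29.3% higher. Within set A 4 of 21 fell and 2 rose, where 5.82% of all genes were called lower and 8.85% higher, and with the myeloid score as a covariate 8 of 22 fell, where 13.6% of all genes did. The largest falls were those of Ccr9, Cd69 and Ccr7. Ccr9, the receptor for the thymic and gut chemokine CCL25, fell from 325 to 529 scaled RPKM in thymus to 0.746 to 133 (log2 difference -4.80, limma adjusted p = 9.27e-06). Cd69, which removes S1PR1 from the cell surface, differed by -2.91 (adjusted p = 3.28e-06), and Ccr7, which draws maturing thymocytes to the medulla, by -2.61 (adjusted p = 5.55e-05).

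Among the genes that rose was Sphk1 (1.89, limma adjusted p = 4.87e-05), a kinase that makes sphingosine-1-phosphate. Sphk1 was near 0 in every thymus library (at most 0.0597) and 0.657 to 9.05 in WT T-ALL. In Notch3 KO T-ALL 11 of the 22 fell and 1 rose (median -0.55 against 0.08), where 16.3% of all genes were called lower, and with the myeloid score as a covariate 6 fell (10.1% of all genes). Cd69 (-3.56), Ccr7 (-2.92) and Ccr9 (-2.97) were among the genes that fell and Sphk1 (2.97) rose.

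Of the 12 other integrin subunits tested, 4 rose and 4 fell in WT T-ALL (median 0.22 against 0.08 over all genes), beside 29.3% and 22.3% of all genes, and within set A 1 of 9 rose and 0 fell, beside 8.85% and 5.82%. With the myeloid score as a covariate 1 rose and 3 fell, beside 14.8% and 13.6%. Those that rose were Itga9 (3.13, limma adjusted p = 9.66e-08), Itgad (1.64, adjusted p = 0.00127), Itgam (1.35, adjusted p = 0.0371), the α chain of Mac-1 on myeloid cells, and Itga2b (1.12, adjusted p = 0.00357), the platelet αIIb chain. Those that fell were Itga5 (-1.09), Itgb2 (-0.92), the β chain that pairs with Itgal, Itga6 (-0.75) and Itgav (-0.50), named after their values were seen because the count is small. Itga2b stood between 0.442 and 10.4 scaled RPKM in WT T-ALL and between 7.55 and 12.0 in Notch3 KO T-ALL, where the sum of 5 megakaryocyte genes was 54.6 to 177 against 0.273 to 0.903 in thymus. With the myeloid score as a covariate the difference of Itgam was -0.83 (limma adjusted p = 0.107). In Notch3 KO T-ALL 4 rose (Itga2b, Itga9, Itgad and Itgb5) and 2 fell (Itga5 and Itgav), beside 21.2% of all genes called higher and 16.3% lower. With the myeloid score as a covariate 2 rose and 3 fell (11.9% and 10.1% of all genes), and within set A 6 of 11 rose and 1 fell (18.8% and 13.7%).

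Of 6 adhesion ligands tested, Vcam1, the ligand of α4β1, rose (2.63 in WT T-ALL, limma adjusted p = 0.000454, and 4.14 in Notch3 KO T-ALL, adjusted p = 0.000389) and Icam2, a ligand of LFA-1, fell (-1.16, adjusted p = 2.57e-06, and -1.59, adjusted p = 1.47e-05), and the other 4 were not called in either comparison. The ligands called higher in WT T-ALL were 3 with an offset of 0.1 and 2 with the filter at 5, with the set as a term or with a constant variance prior, and in Notch3 KO T-ALL 2 with the set as a term, within set A, without a filter or with WT T-ALL left out of the fit. Of all genes 29.3% were called higher and 22.3% lower in WT T-ALL, and 21.2% and 16.3% in Notch3 KO T-ALL. These shares are close to or above 1 of 6. VCAM-1 is made by stromal cells and macrophages of the spleen. The macrophage list summed to 20.1 to 312 in WT T-ALL against 8.63 to 52.8 in thymus, and the stroma list to 7.40 to 192 against 1.15 to 2.62, though 4 of its 6 genes (Col3a1, Col1a1, Dcn and Lum) had a WT T-ALL mean under 1. With the myeloid score as a covariate the Vcam1 difference was 0.52 in WT T-ALL and was not called (limma adjusted p = 0.426), and in Notch3 KO T-ALL it was 1.84 (adjusted p = 0.0337). With the erythroid score it was -0.63 and -0.52 and was called in neither.

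A list of 18 genes held regulators of integrins, linkers of CD44 to the cytoskeleton and other adhesion molecules, and not all of them promote adhesion. Of these, 11 fell and 1 rose in WT T-ALL (median -0.48 against 0.08), and 6 fell and 1 rose in Notch3 KO T-ALL (median -0.44 against 0.08). Of all genes 22.3% and 16.3% were called lower. Within set A 0 of the 18 fell in WT T-ALL and 2 in Notch3 KO T-ALL, where 5.82% and 13.7% of all genes did, and with mitochondrial and hemoglobin genes left out of the scaling 14 and 13 fell, where 38.7% and 30.3% of all genes did. The largest falls in WT T-ALL were those of Cytip (-1.57, limma adjusted p = 0.00235), an adaptor that restrains LFA-1 adhesion, Skap1 (-1.03, adjusted p = 1.58e-05), an adaptor that promotes it after T-cell receptor signals, and Selplg (-0.77, adjusted p = 0.00523), the ligand of P-selectin. The gene that rose was Vcl, which encodes vinculin (2.40, adjusted p = 1.15e-06, in WT T-ALL and 2.40, adjusted p = 0.00022, in Notch3 KO T-ALL). None of the 58 genes tested in these lists was called between Notch3 KO T-ALL and WT T-ALL (limma), and 1 integrin subunit was with the myeloid score as a covariate, with quantile normalization and with thymus in the fit. With the erythroid score as a covariate 1 of the 58 was called in WT T-ALL against thymus and 0 in Notch3 KO T-ALL against thymus, where 6.95% and 1.40% of all genes were.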

How the data were processed

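RNA from 23 samples was sequenced by the authors as paired ends on a HiSeq from stranded mRNA libraries, mapped to the mouse transcriptome (mm10) with OSA in ArrayStudio and deposited as log2(scaled RPKM + 1), with every library brought to the same 75th percentile. Groups were taken from the sample labels. Nothing says whether samples of a group came from separate cohorts. Members and lists were chosen with earlier results of these data known. The deposited log2 values were tested with limma 3.58.1 (lmFit, eBayes with trend and robust) in R 4.3.3, with Benjamini-Hochberg adjustment over all genes that reached a scaled RPKM of 1 in 3 libraries. The comparisons with thymus used 1 fit of all 3 groups, and Notch3 KO T-ALL against WT T-ALL used those groups only. Single values were compared by exact permutation of the libraries, and correlations by 100000 permutations (scipy 1.17.1). The script was tested on simulated data. Besides the 9 members, each list names at most 4 called genes per comparison with thymus, those with the largest differences. The other integrin subunits are the exception, and all of those called are named. For each member the 2 genes most like it are named, without T-cell receptor, immunoglobulin, hemoglobin, ribosomal and predicted genes. The 2 library sets, the fits that use them, and the differences between members within a library were added after seeing the data. Alternatives changed the filter, offset, scaling, covariates, samples fitted and variance prior. The values of 1 list gene are not reported here.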

Additional observations from a re-analysis of the deposited data

How the results depend on the processing

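Of 27 member differences, 336 values under other settings comprised 287 that kept direction and side of the threshold, 21 that lost a call, 5 that gained one and 23 that changed sign. The number of members called in WT T-ALL against thymus, 5, became 1 with the erythroid covariate, 3 with the myeloid covariate, 1 within set A, 3 with the replicate block and 3 in the same libraries without it, and was 5 without any 1 library. Of all genes 6.95%, 28.3%, 14.7%, 18.4% and 21.4% were called in these fits in turn, and 45.7% to 53.3% without 1 library. In Notch3 KO T-ALL against thymus, 6 members called became 1 with the erythroid covariate, 4 with the myeloid covariate and 4 to 6 without 1 library. Of all genes 1.40%, 22.04% and 24.1% to 36.2% were called there. Between the leukemia groups the number of members called was 0 throughout. Shared numbers did not pair the samples (correlations of deviations -0.24, 0.09 and 0.13 for WT T-ALL and 0.04, -0.03 and 0.15 for Notch3 KO T-ALL). For Notch3 KO T-ALL 6 members were called with the replicate block and 7 in the same libraries without it, with Cd44 added. Of all genes 33.5% and 35.1% were called in these 2 fits. Between the leukemia groups no paired fit was possible because they share 1 number. Correlated pairs were 0, and 2 by Spearman's rho. Relations with scores were 2, and 1 to 4 without 1 library (1 without WT T-ALL 36, 4 without WT T-ALL 110).

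Signs changed as follows, and the cause was not tested. With the erythroid covariate, WT T-ALL against thymus gave Cd44 -0.69, Itgb1 -0.63, Klf2 1.48, Itgad -0.54, Selplg 0.20 and Vcam1 -0.63, Notch3 KO T-ALL against thymus gave Cd44 -0.997, Itgb1 -1.08, Klf2 0.62, Itgad -0.32, Itgb5 -0.013 and Vcam1 -0.52, and the leukemia groups gave Cd44 -0.29 and Foxo1 0.17. With the myeloid covariate the values were Cd44 -0.81, Itga4 0.25 and Itgam -0.83 in WT T-ALL, Cd44 -0.70 and Itga4 0.38 in Notch3 KO T-ALL, and Itgal 0.025 between the leukemia groups. Rescaling gave Itgb1 -0.092 and -0.185 against thymus. Within set A Itga4 was 0.16 in WT T-ALL against thymus. Between the leukemia groups, Itga4 was -0.34, Itgal 0.18 and Itgb1 0.35 both within set A and with the set as a term, which gave Itgae 0.39. Without 1 library, Itga4 was -0.86 to 0.21 in Notch3 KO T-ALL against thymus, and between the leukemia groups Itga4 was -0.37 to 0.70, Itgal -0.13 to 0.20, Itgb1 -0.148 to 0.0771 and Foxo1 -0.29 to 0.15.

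Over all genes, 6150 calls in WT T-ALL became 828 with the erythroid and 3377 with the myeloid covariate, 1555 within set A and 1942 with the replicate block (2262 without it). In Notch3 KO T-ALL 4475 became 167 and 2627 with these covariates, and 2859 without library 3. Between the leukemia groups 72 became 134 without a filter, 6 with the filter at 5, 39 with the offset of 0.1, 254 with thymus in the fit, 17 with the erythroid covariate, 159 with the set as a term, 13 within set A and 3 to 205 without 1 library. With the replicate block the genes that fell in WT T-ALL were 6 of 21 egress partners and 1 of the 18 integrin regulators, CD44 linkers and other adhesion molecules, where 8.02% of all genes fell. The depth of each library is not known, and S1pr1 and Itgae in the leukemias lie near the lower end of what these values resolve.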
